A study of Mus musculus with 12 samples.

Results

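Polycomb genes encode the proteins of PRC1 and PRC2, chromatin complexes that keep developmental genes off in stem cells. The genes described here are the 10 rows of the count table named Ezh1, Ezh2, Eed, Suz12, Jarid2, Mtf2, Rnf2, Ring1, Pcgf6 and Kdm2b, out of 26742 genes. RNA was measured in male mouse embryonic stem (ES) cells grown with serum and leukaemia inhibitory factor, with 3 libraries in each of 4 groups. The groups were 129-background cells given 1 µM of the MEK inhibitor PD 0325901 daily up to day 5, 129 cells given the solvent DMSO over the same days, B6J-background cells given the inhibitor, and B6J cells given DMSO; RNA was taken at day 5. MEK activates the kinase ERK, and its inhibition is part of naive-state culture; by its title, the series asks how genetic background bears on DNA hypomethylation in the naive state. The labels name no clone and no separate cultures, so backgrounds cannot be told apart from the cell lines used. The spread behind each p-value is that between the 3 libraries inside each group, estimated jointly over all 4 groups. It may be technical.

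PRC2 places methyl groups on lysine 27 of histone H3. Ezh2 or its paralog Ezh1 is the catalytic subunit, Suz12 is the scaffold, and Eed binds the methylated mark and stimulates the enzyme. Mtf2 and Jarid2 belong to alternative forms of PRC2: Mtf2 binds unmethylated CpG-rich DNA, and Jarid2 binds ubiquitinated histone H2A. PRC1 places that ubiquitin through Rnf2 (RING1B) or its paralog Ring1 (RING1A). Pcgf6 and Kdm2b define variant PRC1 complexes, and Kdm2b brings its complex to unmethylated CpG islands.

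On GRCm38, GENCODE M21 places Eed at chr7:89954654-89980983, Ezh2 at chr6:47530139-47595341, both on the minus strand, and Suz12 at chr11:79993106-80034123 on the plus strand. Jarid2 lies at chr13:44729474-44921643 (plus), Mtf2 at chr5:108065674-108109004 (plus), Ezh1 at chr11:101191115-101226463 (minus) and Rnf2 at chr1:151458004-151500955 (minus). Ring1 lies at chr17:34020792-34024680, Pcgf6 at chr19:47033617-47050906 and Kdm2b at chr5:122870665-122989823, all on the minus strand. The strand setting of the counting is not given in the sources used here, and 6 members share exon bases with a gene on the opposite strand, among them Eed (261 bases with E230029C05Rik), Mtf2 (395 with Tmed5) and Kdm2b (627 with Rnf34), and how reads there were counted cannot be told; Tmed5 and Rnf34 have rows of their own in the count table, and E230029C05Rik has none. The 250 bases before the RefSeq start of Eed, Ezh2 and Suz12, core PRC2 genes, are shown (RefSeq, GRCm38.p6). They were picked because Eed was called higher with the inhibitor and its partners Ezh2 and Suz12 were not. The Suz12 intervals, given below, are wide enough to hold the change of Eed, so for Suz12 a like change is not excluded. Capitals mark matches, on either strand, to CCAAT or to the GC box GGGCGG.
Eed, chr7:89980977-89981226, minus strand: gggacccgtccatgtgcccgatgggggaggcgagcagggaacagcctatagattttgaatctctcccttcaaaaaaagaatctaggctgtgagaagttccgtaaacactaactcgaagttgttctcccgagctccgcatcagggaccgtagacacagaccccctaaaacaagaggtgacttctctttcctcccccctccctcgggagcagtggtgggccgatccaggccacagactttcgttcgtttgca
Ezh2, chr6:47595031-47595280, minus strand: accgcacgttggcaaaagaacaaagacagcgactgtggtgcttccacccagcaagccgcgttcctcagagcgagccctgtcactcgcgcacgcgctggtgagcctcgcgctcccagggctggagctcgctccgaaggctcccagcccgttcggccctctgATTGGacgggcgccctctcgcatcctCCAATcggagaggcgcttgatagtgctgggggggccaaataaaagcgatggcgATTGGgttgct
Suz12, chr11:79992856-79993105, plus strand: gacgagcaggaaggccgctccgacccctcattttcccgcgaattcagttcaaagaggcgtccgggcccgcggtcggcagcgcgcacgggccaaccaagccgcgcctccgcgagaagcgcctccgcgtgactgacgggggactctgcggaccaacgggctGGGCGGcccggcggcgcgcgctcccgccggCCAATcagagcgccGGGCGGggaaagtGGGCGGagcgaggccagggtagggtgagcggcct
The Eed window held neither motif, the Ezh2 window held CCAAT 3 times, and the Suz12 window held CCAAT once and GGGCGG 3 times. Of 32851 promoters of the same length, 33.8% held CCAAT and 32.7% held GGGCGG. The motifs CCGGAAG (ETS factors), TTTCGCG (E2F factors) and TGACGT (CRE-binding factors), searched in the same way, were in none of the 3 windows and in 6.91%, 0.703% and 6.47% of all promoters. These are matches of letters only. CpG dinucleotides numbered 12 in the Eed window, 23 in Ezh2 and 37 in Suz12, against a median of 6 over all promoters.

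Library totals ran from 62634533 to 96341637 counts. All 10 genes passed the filter on low counts, which left 16627 genes, and their counts per library ran from 719 (Ring1) to 42159 (Jarid2). In each group 1 library stood apart from the other two: replicate 1 in both 129 groups and in B6J with DMSO, and replicate 3 in B6J with the inhibitor. ES cell markers were abundant in every library (summed over 8 genes, 4709.5 to 4811 and 4392 to 4664 CPM, in 129 and B6J with the inhibitor, 2887 to 3821 and 3307 to 4131 CPM with DMSO). The sums hide differences between these genes. Zfp42 had group means of 481 and 67.4 CPM in 129 and B6J with the inhibitor, and 289 and 35.7 CPM with DMSO. Lin28a had 476 and 483 CPM with the inhibitor, and 606 and 738 CPM with DMSO. Levels are CPM, counts scaled to a common library size after TMM normalization. Genes with an adjusted p (Benjamini-Hochberg, all tested genes) below 0.05 in edgeR's quasi-likelihood test are written as called, and every adjusted p below is from that test unless another tool is named. In bulk samples a change in RNA per cell and a change in the mix of cells cannot be told apart. Of the 8 ES cell markers, 3 were called higher and 1 lower (Zfp42) in B6J with DMSO, against 10.4% and 10.5% of all tested genes. With the inhibitor it was 1 and 1 (Zfp42 again), against 8.9% and 9.47%. Inhibitor against DMSO, 6 were called higher and 1 lower (Lin28a) in 129, and 5 and 1 (Lin28a) in B6J. ERK target genes, which ERK signalling induces, were called lower for 8 of 10 in 129 and 9 of 10 in B6J. Over all tested genes 17.4% were called higher and 18.2% lower with the inhibitor in 129, and 14.6% and 16.5% in B6J. Fibroblast marker genes moved with the inhibitor: of 20, 14 were called higher in 129 and 12 in B6J, and none was at 0. Their summed level ran from 7822 to 12369 CPM with the inhibitor and from 3443 to 6655 CPM with DMSO in 129, and from 7169.6 to 11888 CPM and 4866 to 5859 CPM in B6J. Their part in the results was not tested. Fits with the mean log2 CPM of these markers as a covariate were run, but that level did not overlap between media. In 129 it was 6.65 to 7.29 with the inhibitor and 5.41 to 6.38 with DMSO. In B6J it was 6.60 to 7.24 and 5.93 to 6.26. For changes with the inhibitor, such fits cannot tell the marker level apart from the treatment.

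**Figure D1:**
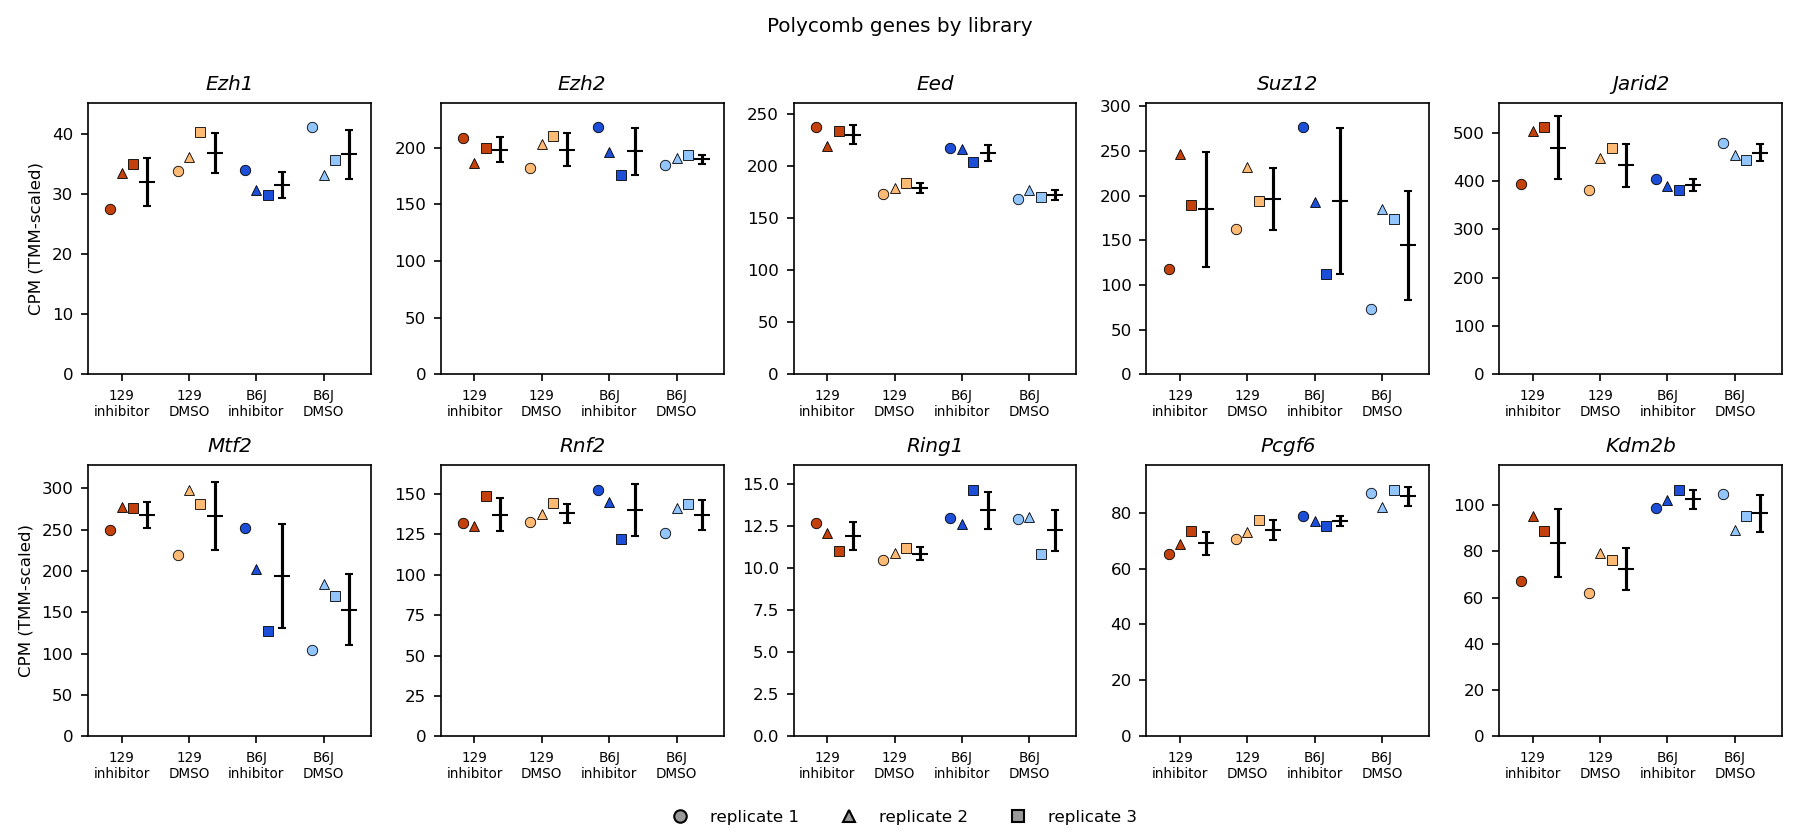
TMM-scaled CPM of each of the 10 polycomb genes in each library, by group, with replicates 1 to 3 as circle, triangle and square, and the mean and SD (n = 3) as a bar beside them. Eed in inhibitor libraries (203.9 to 237 CPM) lies above all DMSO libraries (169 to 184 CPM), while Suz12 and Mtf2 spread widely inside groups.

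Measured per kilobase of exon, so that genes can be compared, Eed had the highest level in both inhibitor groups. It was at 60.2 ± 2.46 CPM per kb in 129 and 55.6 ± 2.07 in B6J with the inhibitor (SD, n = 3 each), above every library of the next gene by mean, Jarid2, at 48.3 ± 6.71 and 40.3 ± 1.24 CPM per kb. A single Suz12 library of B6J with the inhibitor reached 55.9 CPM per kb and overlapped Eed. With DMSO the top was shared. In 129, Eed (46.8 ± 1.36), Mtf2 (46.7 ± 7.26) and Jarid2 (44.5 ± 4.63 CPM per kb) overlapped, and in B6J Jarid2 (47.2 ± 1.80) and Eed (45.0 ± 1.247 CPM per kb) overlapped. Suz12, Rnf2 and Ezh2 lay in the middle of the order, with Mtf2 among them in both B6J groups (34.0 ± 11.02 with the inhibitor and 26.9 ± 7.49 CPM per kb with DMSO). Rnf2 was at 33.2 to 33.9 CPM per kb and Ezh2 at 28.4 to 29.7 CPM per kb as group means, and Suz12 overlapped both except Ezh2 in 129 with DMSO. The last 4 places were the same in all 4 groups: Pcgf6 (13.7 to 17.1), Kdm2b (6.67 to 9.43), Ezh1 (4.24 to 4.94) and Ring1 (3.35 to 4.14 CPM per kb, group means). Ezh1 and Ring1 overlapped in both inhibitor groups and not in the DMSO groups. Per kilobase of longest coding sequence instead, the top changed: Eed stayed first in the inhibitor groups, but Mtf2 led in 129 with DMSO and Rnf2 in B6J with DMSO.

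**Figure D2:**
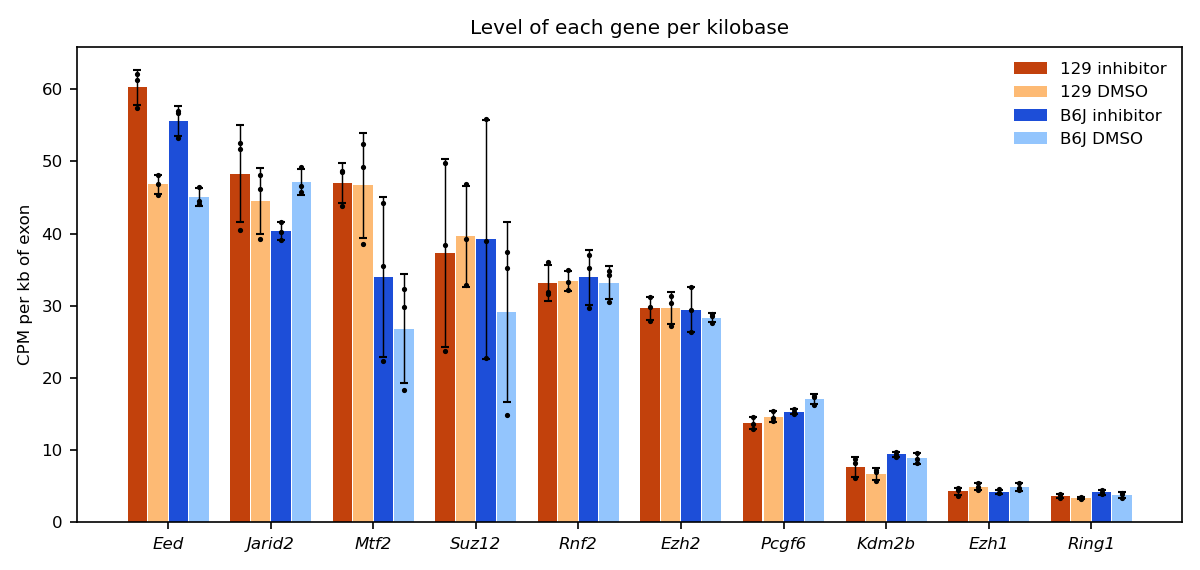
Level of each polycomb gene in CPM per kb of exon union; bars are group means, error bars the SD over 3 libraries and points the libraries. Eed, Jarid2, Mtf2 and Suz12 are high, and Pcgf6, Kdm2b, Ezh1 and Ring1 take the last 4 places in each group.

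Each enzyme pair was dominated by 1 paralog. The ratio of Ezh1 to Ezh2, in CPM per kb, was 0.146 ± 0.0237 in 129 with the inhibitor and 0.167 ± 0.0063 with DMSO, and in B6J 0.144 ± 0.0068 with the inhibitor and 0.174 ± 0.0229 with DMSO (SD, n = 3 each). Ezh2 was thus the larger of the pair in every library. The ratio of Ring1 to Rnf2 was 0.112 ± 0.0151 in 129 with the inhibitor and 0.1002 ± 0.00103 with DMSO, and in B6J 0.124 ± 0.0249 and 0.115 ± 0.0172. These ratios are given as a description, with no test. The ratio of Eed to Ezh2 did not overlap between media. It was 1.99, 2.06 and 2.05 in 129 with the inhibitor and 1.67, 1.55 and 1.53 with DMSO, and 1.75, 1.93 and 2.02 in B6J with the inhibitor and 1.59, 1.63 and 1.54 with DMSO. Suz12 to Ezh2 ran from 0.762 to 1.79 and from 0.861 to 1.71 in 129 and B6J with the inhibitor, and from 1.21 to 1.54 and from 0.537 to 1.31 with DMSO.

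Eed was higher with the MEK inhibitor in both backgrounds, and the other 9 genes were not called. In 129, 1 of the 10 was called, against 35.7% of all tested genes (17.4% higher and 18.2% lower); in B6J it was again 1 of the 10, against 31.1% (14.6% higher and 16.5% lower). Both shares are below that of all genes. The median log2 fold change of the 10 was 0.0042 in 129 and 0.071 in B6J, beside -0.010 and 0.0023 over all tested genes. DESeq2 and limma-voom also called 1 of the 10 in each background.

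Eed had 237, 219.9 and 235 CPM in 129 with the inhibitor, against 174, 179.6 and 184 CPM with DMSO. In B6J it had 218, 217 and 203.9 CPM with the inhibitor, against 169, 178 and 171 CPM with DMSO. The inhibitor libraries were all higher, with no overlap. Groups did not overlap for 1 of the 10 members in 129, against 47.4% of all tested genes, and for 3 of the 10 in B6J (Eed, Jarid2 and Pcgf6), against 8317 of the 16627 tested genes. The rise was 0.36 on the log2 scale (SE 0.057, 95% interval 0.24 to 0.49, adjusted p = 0.000565) in 129 and 0.31 (SE 0.057, 0.18 to 0.43, adjusted p = 0.00194) in B6J, or 1.29-fold and 1.24-fold. Eed was called under every alternative run, with changes of 0.32 to 0.40 in 129 and 0.29 to 0.34 in B6J. With the fibroblast level as a covariate the changes were 0.39 (adjusted p = 0.00694) and 0.33 (adjusted p = 0.00658). The difference between the responses was -0.058 (95% interval -0.24 to 0.12, adjusted p = 0.822).

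The catalytic subunit Ezh2 was not called. It had 208, 186 and 199 CPM in 129 with the inhibitor, against 182, 203 and 209.7 CPM with DMSO, and 218, 196 and 176 CPM in B6J with the inhibitor, against 185, 190.5 and 193 CPM with DMSO. The groups overlapped in both backgrounds. The log2 change was -0.00082 (95% interval -0.19 to 0.18) in 129 and 0.053 (-0.13 to 0.24) in B6J, so a change the size of that of Eed lies outside both intervals. Ezh1 had 27.5, 33.6 and 35.0 CPM in 129 with the inhibitor, against 33.8, 36.2 and 40.4 CPM with DMSO. In B6J it had 34.1, 30.7 and 29.9 CPM with the inhibitor, against 41.1, 33.1 and 35.6 CPM with DMSO. Its estimates were negative in both backgrounds, -0.20 (95% interval -0.45 to 0.052, adjusted p = 0.198) and -0.22 (-0.47 to 0.037, adjusted p = 0.184), with overlapping groups; with the fibroblast covariate both were positive (0.15 and 0.051).

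**Figure D3:**
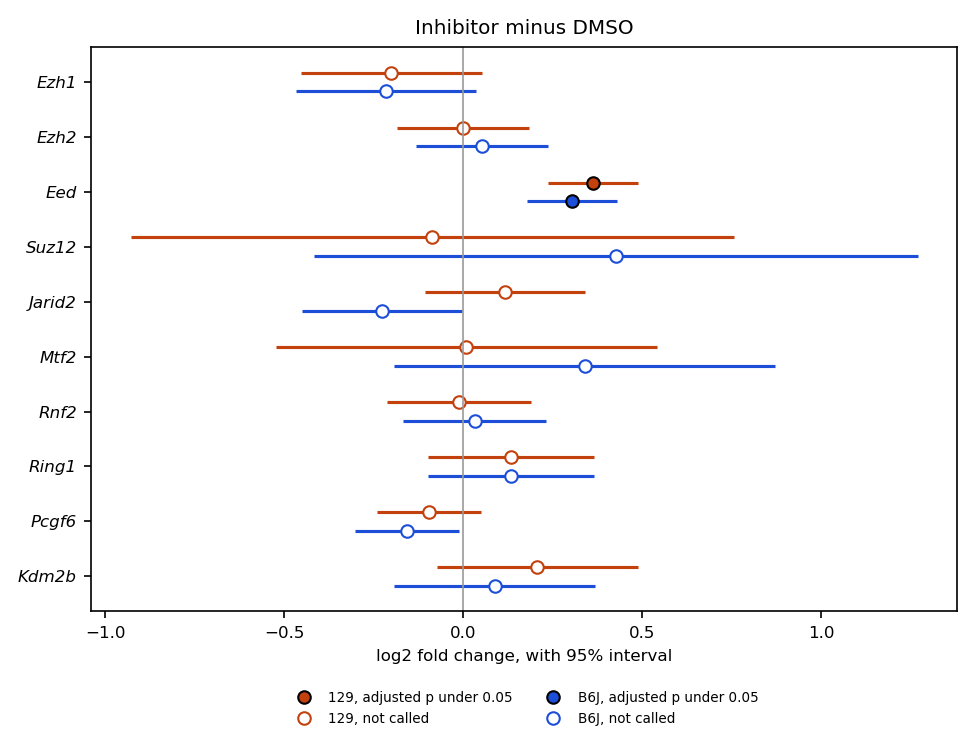
Log2 fold change, inhibitor over DMSO, of each gene in 129 (upper of each pair) and B6J, with 95% intervals; filled points have an adjusted p under 0.05. Eed is filled in both, at 0.36 and 0.31; the Suz12 intervals are the widest, and the Jarid2 points lie on opposite sides of 0.

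Suz12 and Mtf2 were not called and varied widely between libraries of a group. Suz12 had 117, 246 and 189.7 CPM in 129 with the inhibitor, against 162, 232 and 194 CPM with DMSO. In B6J it had 276, 193 and 112 CPM with the inhibitor, against 73.5, 185 and 174 CPM with DMSO. The highest Suz12 library of B6J with DMSO was 2.52 times the lowest, and with the inhibitor 2.46 times, against 1.05 and 1.07 times for Eed in the same groups. The Suz12 changes were -0.086 (95% interval -0.93 to 0.76) in 129 and 0.43 (-0.42 to 1.27, adjusted p = 0.444) in B6J. A change the size of that of Eed lies inside both intervals.

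Mtf2 showed the same libraries high and low. It had 249.9, 277 and 276 CPM in 129 with the inhibitor, against 219.5, 298 and 281 CPM with DMSO, and 252, 202 and 127 CPM in B6J with the inhibitor, against 104.4, 184 and 170.1 CPM with DMSO. Its changes were 0.0093 (95% interval -0.52 to 0.54) in 129 and 0.34 (-0.19 to 0.87, adjusted p = 0.326) in B6J. The 4 libraries that stood apart were also left out, a choice made after seeing the data that lowers the spread by its construction. Mtf2 was then called higher in B6J (0.34, adjusted p = 0.00512) and the 129 value was -0.061. The Mtf2 difference between the responses was called in that fit too, as higher in B6J (adjusted p = 0.042).

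In both B6J groups and in 129 with the inhibitor, the library lowest in Suz12 and Mtf2 was also low in AT-rich transcripts at large. In 129 with DMSO the libraries hardly differed in this. Each library was given an index, the median deviation from the group mean in log2 CPM over the 10% of genes with the lowest GC content (1662 genes) minus that over the 10% with the highest (1663 genes). The index was -0.45 in replicate 1 of B6J with DMSO, -0.33 in replicate 3 of B6J with the inhibitor and -0.15 in replicate 1 of 129 with the inhibitor. In replicate 1 of 129 with DMSO it was -0.035, close to the -0.015 of replicate 3. Suz12 and Mtf2 deviated there by -0.26 and -0.27 in log2 CPM. These 4 libraries, the ones that stood apart, had the 4 lowest values of the index, of Suz12 and of Mtf2, each relative to its group mean. The longest Suz12 transcript has 41.6% GC, that of Mtf2 38.2% and that of Rnf2 39.5%; Mtf2 and Rnf2 are members of that low-GC set themselves. Eed (47.8% GC) lay between -0.068 and 0.045 of its group mean in log2 CPM over the 12 libraries, and Ring1 (56.9% GC) between -0.17 and 0.13. A covariate added after seeing the data was such an index, taken relative to all libraries. With it, the Suz12 change was 0.38 in 129, and Mtf2 was called higher there (0.32, adjusted p = 0.0388). That index was -0.19, 0.046 and 0.047 in the 129 libraries with the inhibitor and 0.17, 0.27 and 0.19 with DMSO. It did not overlap between these groups, so the fit also adjusts for a difference that cannot be told apart from the inhibitor. What moves the index between libraries was not tested.

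**Figure D4:**
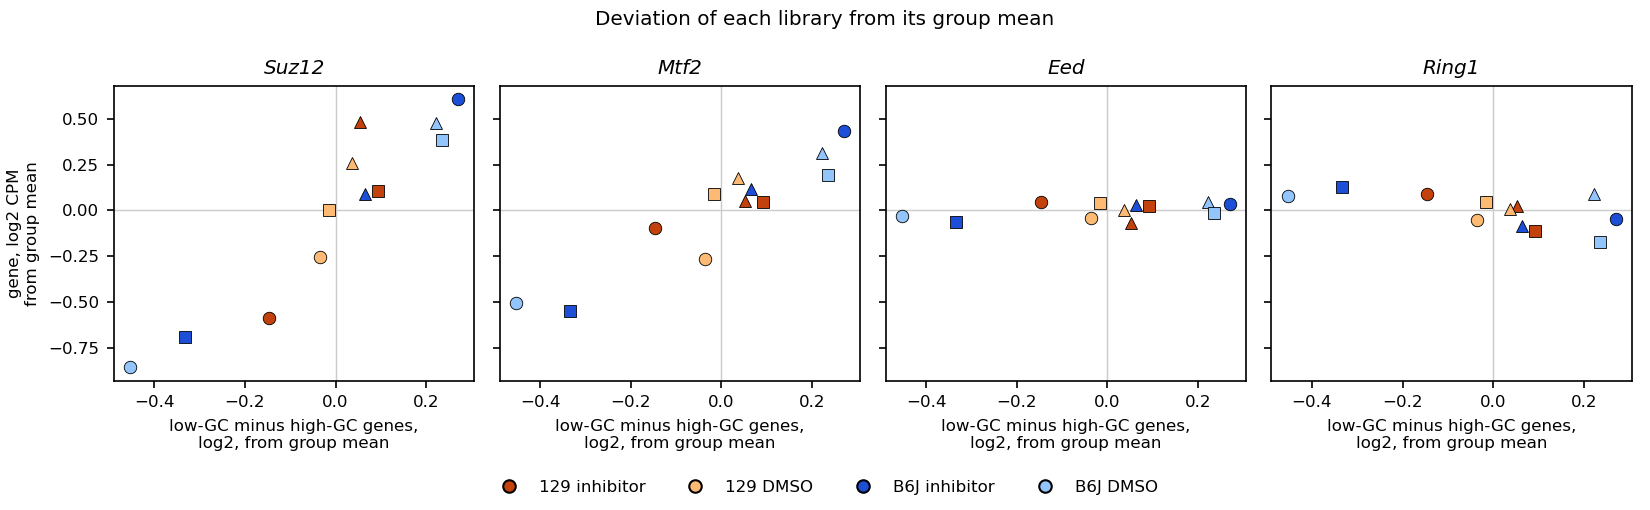
Deviation of each library from its group mean in log2 CPM of Suz12, Mtf2, Eed and Ring1 (vertical) against the deviation of the low-GC minus high-GC index (horizontal, log2); colours are the groups, and circle, triangle and square replicates 1 to 3. Suz12 and Mtf2 are lowest in the libraries with an index of -0.45, -0.33, -0.15 and -0.035, while Eed lies near 0 throughout.

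Jarid2 was the member whose 95% interval for the difference between the responses lay away from 0, though it was not called; its estimate was positive in 129 and negative in B6J. It had 394, 503 and 511 CPM in 129 with the inhibitor, against 382, 448 and 467 CPM with DMSO, with overlap. In B6J it had 404, 390.5 and 380.3 CPM with the inhibitor, against 478, 453 and 444 CPM with DMSO, so that all inhibitor libraries were lower, a separation no more frequent among the members than among all tested genes. The changes were 0.12 (95% interval -0.11 to 0.34, adjusted p = 0.397) in 129 and -0.23 (-0.45 to -0.0035, adjusted p = 0.116) in B6J, and neither was called. A fit of the B6J groups alone called Jarid2 lower there (-0.23, adjusted p = 0.0107). So did the fit without the 4 libraries that stood apart (adjusted p = 0.00522). The difference between the responses, B6J minus 129, was -0.34 (95% interval -0.66 to -0.028, adjusted p = 0.337) and was not called. It was called without the 4 libraries that stood apart (-0.34, adjusted p = 0.00645) and with the fibroblast covariate (-0.43, adjusted p = 0.0207). The covariate gave 0.47 (adjusted p = 0.00496) in 129 and turned the B6J estimate to 0.039. Leaving out replicate 1 of 129 with the inhibitor brought calls in 129 (0.24, adjusted p = 0.0486) and in B6J (-0.21, adjusted p = 0.0459).

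The PRC1 ligases were not called. Rnf2 had 132, 130.3 and 149 CPM in 129 with the inhibitor, against 133, 137 and 144 CPM with DMSO, and 153, 145 and 122 CPM in B6J with the inhibitor, against 126, 141 and 143 CPM with DMSO. Its changes were -0.010 (95% interval -0.21 to 0.19) and 0.032 (-0.17 to 0.23). Ring1 had 12.7, 12.1 and 11.01 CPM in 129 with the inhibitor, against 10.5, 10.9 and 11.2 CPM with DMSO, and 13.0, 12.6 and 14.7 CPM in B6J with the inhibitor, against 12.9, 13.0 and 10.8 CPM with DMSO. The groups overlapped, and the Ring1 changes were 0.13 in both backgrounds (95% intervals -0.099 to 0.37 and -0.099 to 0.36).

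Pcgf6 and Kdm2b, the variant PRC1 subunits, were not called either. Pcgf6 had 65.2, 68.7 and 73.3 CPM in 129 with the inhibitor, against 70.6, 73.0 and 77.5 CPM with DMSO, and 78.8, 76.9 and 75.2 CPM in B6J with the inhibitor, against 87.1, 82.0 and 88.2 CPM with DMSO. The groups overlapped in 129 and not in B6J; the changes were -0.094 (95% interval -0.24 to 0.051, adjusted p = 0.291) in 129 and -0.16 (-0.30 to -0.011, adjusted p = 0.0967) in B6J. Kdm2b had 67.2, 95.3 and 88.8 CPM in 129 with the inhibitor, against 62.2, 79.3 and 76.1 CPM with DMSO, and 98.6, 102 and 107 CPM in B6J with the inhibitor, against 105, 89.2 and 95.2 CPM with DMSO. Its changes were 0.21 (95% interval -0.074 to 0.49, adjusted p = 0.231) and 0.088 (-0.19 to 0.37, adjusted p = 0.649), with overlap. In 129, Kdm2b was called higher without replicate 1 of the inhibitor group (0.35, adjusted p = 0.0297), without the 4 libraries that stood apart (0.25, adjusted p = 0.00434) and with the fibroblast covariate (0.60, adjusted p = 0.0128); with the covariate it was also called in B6J (0.39, adjusted p = 0.0435).

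In 129 the replicate numbers were treated as pairs. By pair, Kdm2b and Jarid2 were higher with the inhibitor in 3 of 3, and Pcgf6 and Ezh1 were lower in 3 of 3. Over all tested genes the share with 3 of 3 pairs alike was not counted. It is at least the 47.4% whose groups did not overlap in 129, so these signs do not set the members apart. With the number as a block in a fit of the 129 groups alone, the changes were 0.19 for Kdm2b (adjusted p = 0.0577), 0.11 for Jarid2 (adjusted p = 0.167), -0.10 for Pcgf6 (adjusted p = 0.209) and -0.21 for Ezh1 (adjusted p = 0.0675), and none was called.

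No member was called for a difference between the 2 responses, against 1.48% of all tested genes (0.71% higher in B6J and 0.77% lower). By edgeR's quasi-likelihood test 1 of the 10, Jarid2, had an unadjusted p under 0.05, and DESeq2 and limma-voom called 0. Apart from Jarid2 and Eed, the estimates ran from -0.12 (Kdm2b) to 0.51 (Suz12), with 95% intervals that all include 0.

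Between DMSO-treated cells of the 2 backgrounds, 3 of the 10 genes were called, against 20.9% of all tested genes (10.4% higher and 10.5% lower in B6J). Mtf2 was lower in B6J, while Pcgf6 and Kdm2b were higher. With DMSO, Mtf2 had 104.4, 184 and 170.1 CPM in B6J and 219.5, 298 and 281 CPM in 129 (log2 difference -0.80, SE 0.24, adjusted p = 0.0383). Pcgf6 had 87.1, 82.0 and 88.2 CPM in B6J and 70.6, 73.0 and 77.5 CPM in 129 (0.22, SE 0.066, adjusted p = 0.0364), and Kdm2b had 105, 89.2 and 95.2 CPM in B6J and 62.2, 79.3 and 76.1 CPM in 129 (0.41, SE 0.13, adjusted p = 0.042). None of the 3 overlapped between backgrounds; 3 of 10 members is near the 36.9% of all tested genes that did not overlap in this comparison. All 3 calls stood near the threshold and were lost in 10, 12 and 13 of the 23 alternatives run for Mtf2, Pcgf6 and Kdm2b. Without replicate 1 of B6J with DMSO, the library with the lowest Mtf2, the difference was -0.58 for Mtf2 (adjusted p = 0.117), 0.21 for Pcgf6 (adjusted p = 0.0842) and 0.35 for Kdm2b (adjusted p = 0.141). In a fit of the DMSO groups alone none was called (adjusted p = 0.0554, 0.109 and 0.0555). With the GC index as a covariate Mtf2 was called (adjusted p = 0.0243) and Kdm2b was not (0.38, adjusted p = 0.101). Relative to all libraries, the index was 0.17 to 0.27 in 129 with DMSO and -0.59 to 0.12 in B6J with DMSO. In this comparison it cannot be told apart from background.

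**Figure D5:**
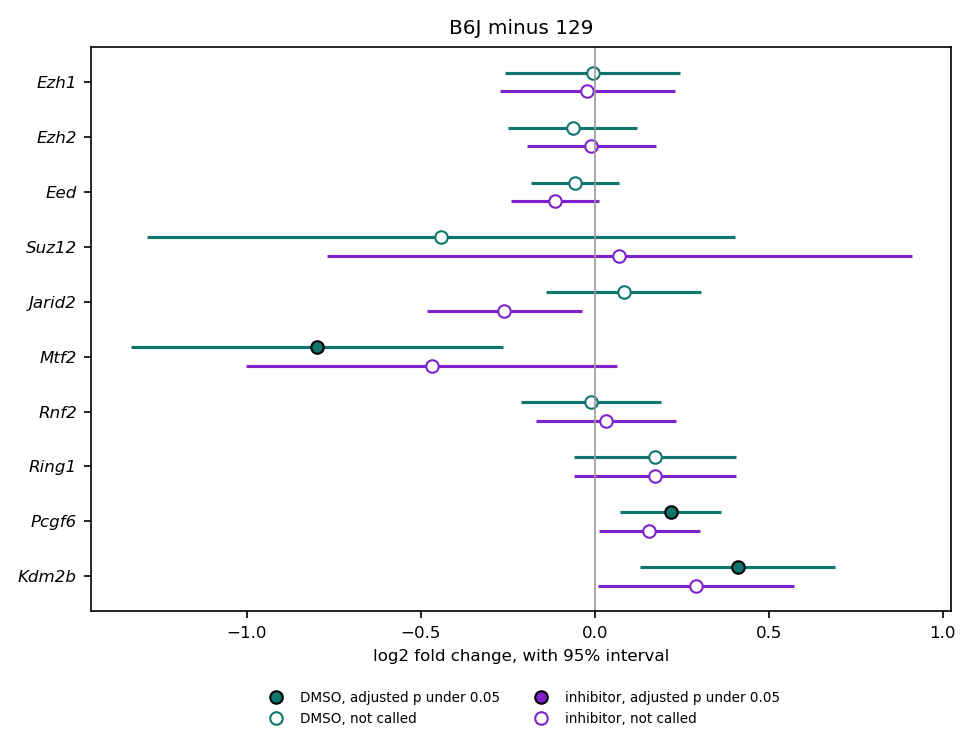
Log2 fold change, B6J over 129, of each gene with DMSO (upper of each pair) and with the inhibitor, with 95% intervals; filled points have an adjusted p under 0.05. The filled points are Mtf2 at -0.80, Pcgf6 at 0.22 and Kdm2b at 0.41, all with DMSO.

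With the inhibitor no member was called between backgrounds, against 18.4% of all tested genes (8.9% higher and 9.47% lower in B6J). By edgeR's test 3 had an unadjusted p under 0.05, and DESeq2 and limma-voom called 0. These 3 were Jarid2 (-0.26, 95% interval -0.48 to -0.037, adjusted p = 0.106), Pcgf6 (0.16, 0.012 to 0.30, adjusted p = 0.132) and Kdm2b (0.29, 0.011 to 0.57, adjusted p = 0.15). Mtf2 was -0.47 (-1.002 to 0.065, adjusted p = 0.227); it was called lower in B6J without the 4 libraries that stood apart (-0.30, adjusted p = 0.0135) and with the GC covariate (-0.49, adjusted p = 0.00472). Jarid2 was called lower in B6J without replicate 1 of 129 with the inhibitor (-0.38, adjusted p = 0.00899), without the 4 libraries (-0.37, adjusted p = 8.96e-05) and with the fibroblast covariate (-0.24, adjusted p = 0.0147). Both comparisons of backgrounds gave Pcgf6 and Kdm2b positive estimates and Mtf2 a negative one; they share no libraries. Eed, Ezh2, Rnf2 and Ezh1 had estimates between -0.11 (Eed with the inhibitor) and 0.032 (Rnf2 with the inhibitor) in both media.

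The other polycomb genes were taken as 6 lists: PRC2 accessory subunits, canonical and variant PRC1 subunits, the complex that removes ubiquitin from histone H2A, H3K27 demethylases and the opposing COMPASS methyltransferases. Of 57 tested, 8 rose and 10 fell in 129 with the inhibitor (median log2 fold change -0.0056), and 8 rose and 10 fell in B6J (median 0.051). These counts are near the shares over all tested genes, 17.4% higher and 18.2% lower in 129 and 14.6% and 16.5% in B6J. Of the 57, 6 rose in both and 6 fell in both, and 0 were called in opposite directions; over all tested genes 1731 rose in both, 1907 fell in both and 45 were called in opposite directions. The others of the 57 were called in 1 background or in none. A difference between the responses was called for 1 of the 57, Asxl3, and for 2 of the 23 PRC2 target genes described below, Eomes and Neurog1. Over all tested genes 1.48% were called for it, and 1 of 57 is near that share.

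Fbrsl1, a paralog of the variant PRC1 subunit Fbrs, had the largest rise among them in B6J and rose in both backgrounds. It was at 199.9 ± 10.3 CPM in 129 with the inhibitor and 113 ± 11.6 CPM with DMSO (0.83, SE 0.098, adjusted p = 7.95e-05), and at 182 ± 8.08 and 97.2 ± 11.95 CPM in B6J (0.91, SE 0.099, adjusted p = 4.24e-05; SD, n = 3 each). Yaf2, an adaptor of variant PRC1, fell to 12.9 ± 2.07 CPM with the inhibitor, against 23.9 ± 2.82 CPM with DMSO, in 129 (-0.89, adjusted p = 0.000343), and to 11.4 ± 0.941, against 20.2 ± 1.48 CPM, in B6J (-0.83, adjusted p = 0.000574). Rbbp7, a histone-binding protein that PRC2 shares with other complexes, fell to 351 ± 10.1 CPM, against 531 ± 21.02 CPM, in B6J (-0.60, adjusted p = 0.000158). In 129 it was also called lower, at 382 ± 32.0 CPM with the inhibitor and 543 ± 46.1 CPM with DMSO (-0.51, adjusted p = 0.000482). Bmi1, a subunit of canonical PRC1, was called in both backgrounds close to the threshold (0.86, adjusted p = 0.046 and 0.87, adjusted p = 0.0494), but its estimate was -0.053 in 129 and 0.14 in B6J with the fibroblast covariate, where it was not called; leaving out single libraries also ended both calls, at adjusted p of up to 0.153 and 0.154.

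Asxl3, of the H2A deubiquitinase complex, fell to 1.68 ± 0.269 CPM with the inhibitor, against 5.61 ± 0.415 CPM with DMSO, in 129 (-1.74, adjusted p = 2.81e-05). Pcgf5, a PCGF subunit of variant PRC1, was called lower in 129 (-1.68, adjusted p = 0.0208), but its DMSO libraries were at 94.7, 19.9 and 19.9 CPM, against 16.8, 12.2 and 13.0 CPM with the inhibitor. The single high library, replicate 1, was also the one high in primitive endoderm markers, with a mean log2 CPM of 3.88 over 12 genes, against at most 0.97 in any other library. Pcgf5 was not called with the replicate number as a block in the 129 groups alone (-1.27, adjusted p = 0.0549) or by limma-voom (adjusted p = 0.0749). The part of those markers in the result was not tested, and without that library the change was -0.51 (adjusted p = 0.0195). Bcorl1, a corepressor of variant PRC1, rose in B6J with the inhibitor (15.5 ± 0.588 CPM, against 8.31 ± 0.102 CPM with DMSO, 0.90, adjusted p = 0.000608), and Phf19, a PRC2 subunit related to Mtf2, fell there (7.44 ± 1.37 CPM, against 12.5 ± 2.17 CPM, -0.75, adjusted p = 0.0242; with the fibroblast covariate -0.17, adjusted p = 0.529). The Phf19 call was also lost without replicate 2 or 3 of B6J with the inhibitor or replicate 1 of B6J with DMSO (adjusted p up to 0.0897).

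Between backgrounds with DMSO, 4 of the 57 were higher and 2 lower in B6J, against 10.4% and 10.5% of all tested genes. Phf19 was the one with the largest difference upward, at 12.5 ± 2.17 CPM in B6J and 5.74 ± 0.889 CPM in 129 (1.124, adjusted p = 0.00445), while Mtf2 lay in the other direction. Scmh1 (0.50, adjusted p = 0.00234) and Cbx7 (0.37, adjusted p = 0.00699), both of canonical PRC1, were also higher in B6J, and Scml2 (-1.87, adjusted p = 0.00365) and Bcorl1 (-1.24, adjusted p = 0.00011) were lower. With the inhibitor, 5 were higher and 2 lower in B6J, against 8.9% and 9.47% of all tested genes. The largest was Asxl3, at 5.26 ± 0.863 CPM in B6J and 1.68 ± 0.269 CPM in 129 (1.65, adjusted p = 6.68e-05). Auts2 (0.57, adjusted p = 0.00747) and Tfdp1 (0.38, adjusted p = 0.000384), found in variant PRC1, were higher, and Scml2 (-1.43, adjusted p = 0.0164) and Cbx6 (-0.30, adjusted p = 0.00772) lower. The Scml2 call with the inhibitor was lost without replicate 2 or 3 of 129 or replicate 3 of B6J (adjusted p up to 0.0618).

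Classical PRC2 target genes, developmental regulators marked by H3K27 methylation in ES cells, moved in both directions. Of 23 tested, 7 rose and 6 fell in 129 (median 0.61) and 4 rose and 3 fell in B6J (median 0.39), with 3 higher in both and 3 lower in both. Over all tested genes 35.7% were called in 129 and 31.1% in B6J, and the B6J count of 7 of 23 is near that share. Nkx2-9, a homeobox gene, rose to 2.24 ± 0.375 CPM with the inhibitor, against 0.690 ± 0.0917 CPM with DMSO, in 129 (1.70, adjusted p = 0.000182), and to 2.09 ± 0.356, against 0.938 ± 0.185 CPM, in B6J (1.16, adjusted p = 0.00207). Cdx2, a trophectoderm regulator, fell to 0.261 ± 0.0179 CPM, against 2.21 ± 0.475 CPM, in 129 (-3.07, adjusted p = 1.5e-05), and to 0.249 ± 0.0833, against 1.27 ± 0.265 CPM, in B6J (-2.34, adjusted p = 9.83e-05). Neurog1, a neural basic helix-loop-helix factor, rose in B6J (2.58 ± 0.601 CPM, against 0.372 ± 0.049 CPM, 2.79, adjusted p = 4.22e-05). Hand1, a trophoblast and heart factor, fell in B6J (0.388 ± 0.101 CPM, against 1.11 ± 0.0303 CPM, -1.52, adjusted p = 0.00127). It was also called lower in 129 (0.210 ± 0.0277 CPM, against 0.531 ± 0.144 CPM, -1.34, adjusted p = 0.00422). Sim2 (1.39, adjusted p = 0.0362) and Gata4 (-3.67, adjusted p = 0.0333) were called in 129. Gata4, an endoderm factor, had 6.999, 1.62 and 1.95 CPM with the inhibitor, against 128, 3.84 and 2.98 CPM with DMSO; without the library at 128 CPM its estimate was 0.047, and blocking on replicate number it was -2.80 (adjusted p = 0.0659). Sim2 was at 1.30 ± 0.711 CPM with the inhibitor and 0.494 ± 0.178 CPM with DMSO, and with the fibroblast covariate its estimate was -0.25; without replicate 1 of the inhibitor group it was 0.87 (adjusted p = 0.171), and with the replicate block 1.36 (adjusted p = 0.058).

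Between backgrounds, 3 target genes were higher and 4 lower in B6J with DMSO, against 20.9% of all tested genes called, and 2 were higher and 0 lower with the inhibitor, against 18.4%. With DMSO, Eomes, a mesendoderm factor, was at 8.82 ± 1.497 CPM in B6J and 31.4 ± 3.42 CPM in 129 (-1.83, adjusted p = 1.4e-05). Hand1 (1.06, adjusted p = 0.0147) and Neurog1 (1.35, adjusted p = 0.0175) were higher in B6J. The Neurog1 call was lost in 6 of 22 alternatives (adjusted p up to 0.0757), among them those without replicate 2 of 129 or replicate 1 of B6J with DMSO, and the Hand1 call without replicate 3 of 129 with DMSO (0.87, adjusted p = 0.0561). Gata6, an endoderm factor, was called lower (-2.90, adjusted p = 0.021), with 33.9 CPM in the 129 library that stood apart and 3.18 and 2.96 CPM in the other two; limma-voom did not call it (-1.97, adjusted p = 0.143), nor was it called without any 1 of the B6J libraries with DMSO (adjusted p up to 0.0721). With the inhibitor, Neurog1 was at 2.58 ± 0.601 CPM in B6J and 0.221 ± 0.0699 CPM in 129 (3.53, adjusted p = 1.93e-05). Eomes was at 5.77 ± 0.131 CPM in B6J and 3.86 ± 0.754 CPM in 129 (0.58, adjusted p = 0.0258). The Eomes call was lost in 5 of the 12 fits that each left out 1 library. Without replicate 1 of the inhibitor-treated 129 cells, the difference was 0.44 (adjusted p = 0.107).

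As a description of likeness, the 2 genes with the highest Pearson correlation of log2 CPM with each member over the 12 libraries were taken from the 10560 genes averaging 5 CPM or more. The libraries share background, medium, depth and the GC index, so such values can be high for many genes. Eed was most like Rnaseh2b (0.99) and Kdm3a (0.98), and Ezh2 most like Fkbp3 (0.88) and Zfp472 (0.83). Of such genes, Arid4a stood at 0.99 for Suz12, and Mtf2 was most like Gtf2a1 (0.97) and Zfp873 (0.96). The transcripts of these genes named for Suz12 and Mtf2 have 40.8 to 44.0% GC. Such values are not particular to them: those named for Ezh2 have 38.3 and 40.5%, and those for Rnf2, below, 40.1 and 43.7%. Over the genes named for the other members GC runs from 38.3% (Fkbp3, for Ezh2) to 62.1% (Map1s, for Ring1). Ezh1 was most like Pan2 (0.96) and Cox15 (0.95), Jarid2 like Polr3b (0.93) and G3bp2 (0.92), Rnf2 like Zfp748 (0.88) and Hsp90aa1 (0.87), and Ring1 like Mrpl4 (0.92) and Map1s (0.91). Pcgf6 was most like Pop1 (0.98) and Xpo5 (0.96), and Kdm2b like Tmem186 (0.97) and Plekhm1 (0.95). No member was among the genes searched.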

How the data were processed

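RNA-seq of 12 libraries was used. The deposited table holds raw read counts per gene for 26742 genes; per the submitters' processing notes, the authors used STAR 2.7.10, SAMtools, HTSeq 0.6.1p1 and DESeq with mm10 (GRCm38). No source used here gives the annotation or the strand setting. Per the labels' protocols, libraries were made with a stranded mRNA kit. Between 70.09% and 73.37% of the counts from 1 to 20 in a library were even numbers, for which no source gives a reason, so counts halved were one alternative.

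Genes were filtered with filterByExpr (minimum count 10, minimum total 15), leaving 16627, scaled by TMM and tested in R 4.3.3 with edgeR 4.0.16 (quasi-likelihood, one fit of all 4 groups, 5 contrasts, Benjamini-Hochberg threshold 0.05, 95% intervals). Tests ran on simulated counts first. Limma 3.58.1 (voom), DESeq2 1.42.0, RLE scaling, other filters, the replicate number as a block, a fibroblast marker covariate, the contrast's groups alone and leaving out each library were alternatives. A GC covariate, a fit without the 4 libraries that stood apart and a blocked fit of the 129 groups alone were chosen after seeing the data. Lengths and GC contents came from GENCODE M21, and promoters from RefSeq.

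The members and lists were chosen with earlier results of these data known. All 10 members were named; of the 6 other polycomb lists, per contrast, the called genes that rose most (3) and fell most (3), at 1 CPM or more in the higher group; of the target genes, 2 and 2. Rbbp7 and Hand1 in 129 fall outside that rule and were added after their values were seen. For likeness, genes needed a mean of at least 5 CPM. A gene that these rules select in 129 and one selected for likeness are not reported here.

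Titles number the replicates. In 129, the deviations of same-numbered inhibitor and DMSO libraries correlated at 0.44, 0.29 and 0.22 across genes. Inhibitor replicate 2 with DMSO replicate 3 gave 0.19, and inhibitor replicate 3 with DMSO replicate 2 gave 0.21. Replicate 1 of either group with another number gave -0.38 to -0.27. The numbers were taken as pairs, though these values set only replicate 1 clearly apart.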

Additional observations from a re-analysis of the deposited data

Results flagged for a closer look

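The responses to the inhibitor in B6J and 129 differed by an edgeR test of the difference itself for 3 of the genes described. Asxl3 gave a difference of 1.41 on the log2 scale (SE 0.244, adjusted p = 0.0187), with 5.26 ± 0.863 CPM with the inhibitor and 6.62 ± 0.909 CPM with DMSO in B6J, and 1.68 ± 0.269 CPM with the inhibitor and 5.61 ± 0.415 CPM with DMSO in 129 (SD, n = 3 each). Its adjusted p rose to between 0.0588 and 0.0735 without replicate 3 of 129 with the inhibitor, replicate 2 of 129 with DMSO, or replicate 1 or 2 of B6J with the inhibitor. Eomes gave a difference of 2.41 (SE 0.226, adjusted p = 0.00115), with 5.77 ± 0.131 CPM with the inhibitor and 8.82 ± 1.497 CPM with DMSO in B6J, and 3.86 ± 0.754 CPM with the inhibitor and 31.4 ± 3.42 CPM with DMSO in 129. Of 9 mesoderm markers tested, 4 were called for the difference (Lhx1, Gsc, Mixl1 and Eomes itself), against 1.48% of all tested genes. Those 4 were positive, and 4 of the 9 estimates were negative. T, the highest of them with DMSO (120 ± 23.4 CPM in 129 and 28.9 ± 11.1 CPM in B6J), gave -0.23 (adjusted p = 0.916). In 129, 3 of the 9 rose with the inhibitor (Kdr, Foxf1 and Bmp4) and 6 fell, against 17.4% and 18.2% of all tested genes. In B6J the summed level over 10 genes ran from 23.1 to 37.3 CPM with the inhibitor and 40.4 to 67.0 CPM with DMSO. In 129 it ran from 38.4 to 45.4 CPM and from 166 to 227 CPM. The part of these markers in the result was not tested. Neurog1 gave a difference of 2.18 (SE 0.475, adjusted p = 0.0483), with 2.58 ± 0.601 CPM with the inhibitor and 0.372 ± 0.049 CPM with DMSO in B6J, and 0.221 ± 0.0699 CPM with the inhibitor and 0.147 ± 0.0621 CPM with DMSO in 129; limma-voom did not call it (adjusted p = 0.118), and neither did 11 of the 12 fits that each left out 1 library (adjusted p up to 0.136).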

How the results depend on the processing

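Eed kept its direction and its call in both backgrounds under all alternatives run. Over the log2 fold changes of the members, 1000 of 1150 settings kept direction and call, 35 lost a call, 23 gained one and 92 changed sign. Levels under RLE scaling moved by less than 1 SD. The causes of the changes below were not tested.

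With the fibroblast covariate, members called numbered 3 in 129, 2 in B6J, 1 for the difference between responses and 3 between backgrounds with the inhibitor. Without the 4 libraries that stood apart they numbered 3, 3, 2 and 2, and with the GC covariate 2 in 129 and 1 between backgrounds with the inhibitor. In fits of the contrast's groups alone 2 were called in B6J and 0 between backgrounds with DMSO, where no filter, the stricter filter and the replicate block each called 1. Leaving out single libraries gave 1 to 3 called members in 129, 1 to 2 in B6J, 0 to 3 between backgrounds with DMSO and 0 to 1 with the inhibitor.

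Over all genes, the difference between responses was called for 246 genes in the fit reported, 798 with DESeq2, 163 with limma-voom, 156 with the replicate block, 811 with the fibroblast covariate, 162 with the GC covariate, 2059 without the 4 libraries and 73 to 586 leaving out single libraries. Between backgrounds with DMSO 2247 genes were called with those groups alone and 6493 without the 4 libraries, against 3468, and with the inhibitor 5757 without the 4, against 3053.

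The estimates below changed sign; most were near 0, but Bmi1 and Sim2 in 129 had been called (0.86 and 1.39), and Suz12 and Mtf2 for the difference (0.51 and 0.33), Suz12 with DMSO (-0.44) and Jarid2 in B6J (-0.23) had not been near 0. Gata4 in 129, also called (-3.67), changed sign without 1 library. With the fibroblast covariate, values in 129 were 0.15 (Ezh1), 0.17 (Ezh2), 0.73 (Suz12), 0.15 (Rnf2), 0.052 (Pcgf6), -0.053 (Bmi1) and -0.25 (Sim2), and in B6J 0.051 (Ezh1) and 0.039 (Jarid2). For the difference between responses they were -0.0013 (Rnf2) and 0.017 (Ring1), and between backgrounds with DMSO 0.097 (Ezh1) and 0.038 (Rnf2). With the GC covariate, values were 0.046 (Ezh2), 0.38 (Suz12) and 0.074 (Rnf2) in 129; -0.0072 (Ezh2), -0.051 (Suz12), -0.061 (Mtf2), -0.065 (Rnf2) and 0.070 (Ring1) for the difference between responses; and 0.13 (Suz12) and 0.10 (Rnf2) between backgrounds with DMSO. Without the 4 libraries, values were 0.038 (Suz12) and -0.061 (Mtf2) in 129, 0.058 (Ezh1) and 0.027 (Ring1) for the difference, -0.031 (Jarid2) and 0.017 (Rnf2) with DMSO, and 0.085 (Ezh2) with the inhibitor. In 129, Ezh2 was 0.012 under RLE and under DESeq2, 0.0045 with no filter, 0.0071 with the stricter filter, 0.0013 with voom and 0.00054 with halved counts, and Rnf2 was 0.0024 under RLE and 0.0025 under DESeq2. The Ring1 difference between responses was 0.0013 under RLE, 0.011 with no filter, 0.0083 with the stricter filter, 0.0017 with DESeq2, 0.0056 with voom and 0.0026 with the replicate block.

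Leaving out single libraries, values in 129 ran from -0.058 to 0.048 (Ezh2), -0.34 to 0.16 (Suz12), -0.11 to 0.099 (Mtf2), -0.073 to 0.032 (Rnf2) and -4.63 to 0.047 (Gata4), and in B6J from -0.00026 to 0.13 (Ezh2) and -0.029 to 0.13 (Rnf2). For the difference between responses they ran from -0.10 to 0.068 (Ezh1), -0.0039 to 0.13 (Ezh2), -0.023 to 0.13 (Rnf2) and -0.083 to 0.054 (Ring1). Between backgrounds with DMSO they ran from -0.095 to 0.067 (Ezh1) and -0.043 to 0.049 (Rnf2), and with the inhibitor from -0.13 to 0.045 (Ezh1), -0.082 to 0.051 (Ezh2), -0.27 to 0.33 (Suz12) and -0.028 to 0.11 (Rnf2). The Mtf2 call with DMSO was lost without replicate 2 or 3 of 129 with the inhibitor or with DMSO, replicate 2 of B6J with the inhibitor, or replicate 1 or 3 of B6J with DMSO.

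In B6J the same-numbered libraries correlated at -0.19, 0.088 and -0.17, so there the number is only a label. The replicate block left 1 member called in 129 and 1 in B6J, and over all genes called 5446 and 4711; in the 129 groups alone it called 1 member and 6532 genes. Of the calls named in B6J and between backgrounds it ended those of Bmi1 in B6J (0.85), Neurog1 for the difference (2.16), and Mtf2 (-0.81), Pcgf6 (0.22) and Gata6 (-2.35) with DMSO. Ring1, at 719 to 1397 counts, is the member with the least depth; for Suz12 and Mtf2 the spread between libraries, not depth, sets the intervals.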
